A study of Mus musculus with 2 samples.

Results

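Cell cycle and DNA replication genes were examined in adult mouse liver, in a pool labelled FHL2-/- and a wild-type pool. The members were 38 genes taken by symbol, 13 of G1 and its control, 10 of S phase and 15 of G2 and mitosis. A gene was measured where a probe of the array was annotated to that symbol alone, which held for 37 of the 38 among 19938 named genes in all. Ccnb1, a mitotic cyclin, had no such probe.

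Both pools combined left-lobe liver RNA of 3 male mice aged 10 to 11 weeks on a hybrid Black Swiss/129-SV/J background, and neither pool had a stated treatment. The first pool was homozygous for the FHL2 deletion per its label, and the second was wild-type. FHL2 is a cofactor built of LIM domains that associates with many nuclear and signalling proteins. The labels state no exons for the deleted allele. Each pool was hybridised to 1 array, so there is no replicate check, the spread between mice is hidden, and no difference below carries a p-value.

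Cells enter division when D-type cyclins and their kinases inactivate the retinoblastoma protein, which releases E2F factors that switch on the replication genes. A later wave of genes, read from promoters bound in resting cells by a repressive complex called DREAM, serves mitosis. Adult hepatocytes rest outside the cycle and re-enter it after injury or loss of liver mass, so these genes are known as low in undisturbed liver and high during regeneration.

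The values are log2 levels. Some genes are read by more than 1 probe, and this is the sole repeat: between such probes the difference had an SD of 0.143, over 660 genes with 1809 probes. Only probes past the level filter, set out below, entered that SD. Some probes, such as 1 of Pcna, sit among genes of another chromosome and may read a copy. The SD says nothing of animals or hybridisations. Fhl2 was at 5.33 in the knockout-labelled pool and 5.30 in the wild-type pool, a difference of 0.02. Both values were dim, under the level filter of 5.44 set out below, and the genotype rests on the label. The hepatocyte markers measured, 9 of 10 with albumin (Alb) among them, lay between 10.8 and 13.7 in the knockout-labelled pool and between 10.7 and 13.7 in the wild-type pool, and all 9 were far above the levels of receptor genes described next.

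No detection call comes with these values, so genes that liver is known to lack served as a measured floor. Olfactory and vomeronasal receptor genes, 1190 in number, had a median level of 3.67, and 95% of them lay below 4.90. A level filter was also set at the 40th percentile of the probes with 1 symbol, 5.44, which 59.8% of named genes passed. Probes bind with different strength, so these positions say where a signal lies on the array and do not rank transcripts by abundance.

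The G1 and S phase genes were nearly all above both limits, and the mitotic genes lay around them. Of the G1 genes 12 of 13 passed the filter, of the S phase genes 10 of 10, and of the mitotic genes 7 of the 14 measured. Above the receptor limit were 12 of 13, 10 of 10 and 11 of 14, where 72.0% of all named genes were. The median mitotic level was 5.32 in the knockout-labelled pool and 5.43 in the wild-type pool. The members under the receptor limit by their mean level were Ccne2, an E-type cyclin, Bub1, a spindle checkpoint kinase, Foxm1, a transcription factor of the mitotic wave, and Kif11, the motor that separates the spindle poles. Mki67, the proliferation antigen, lay close to it. The other mitotic genes of the pathway, a list of 58, were dim in larger part, with 18 past the filter and 27 above the receptor limit. These signals do not show whether a dim gene was expressed.

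**Figure D1:**
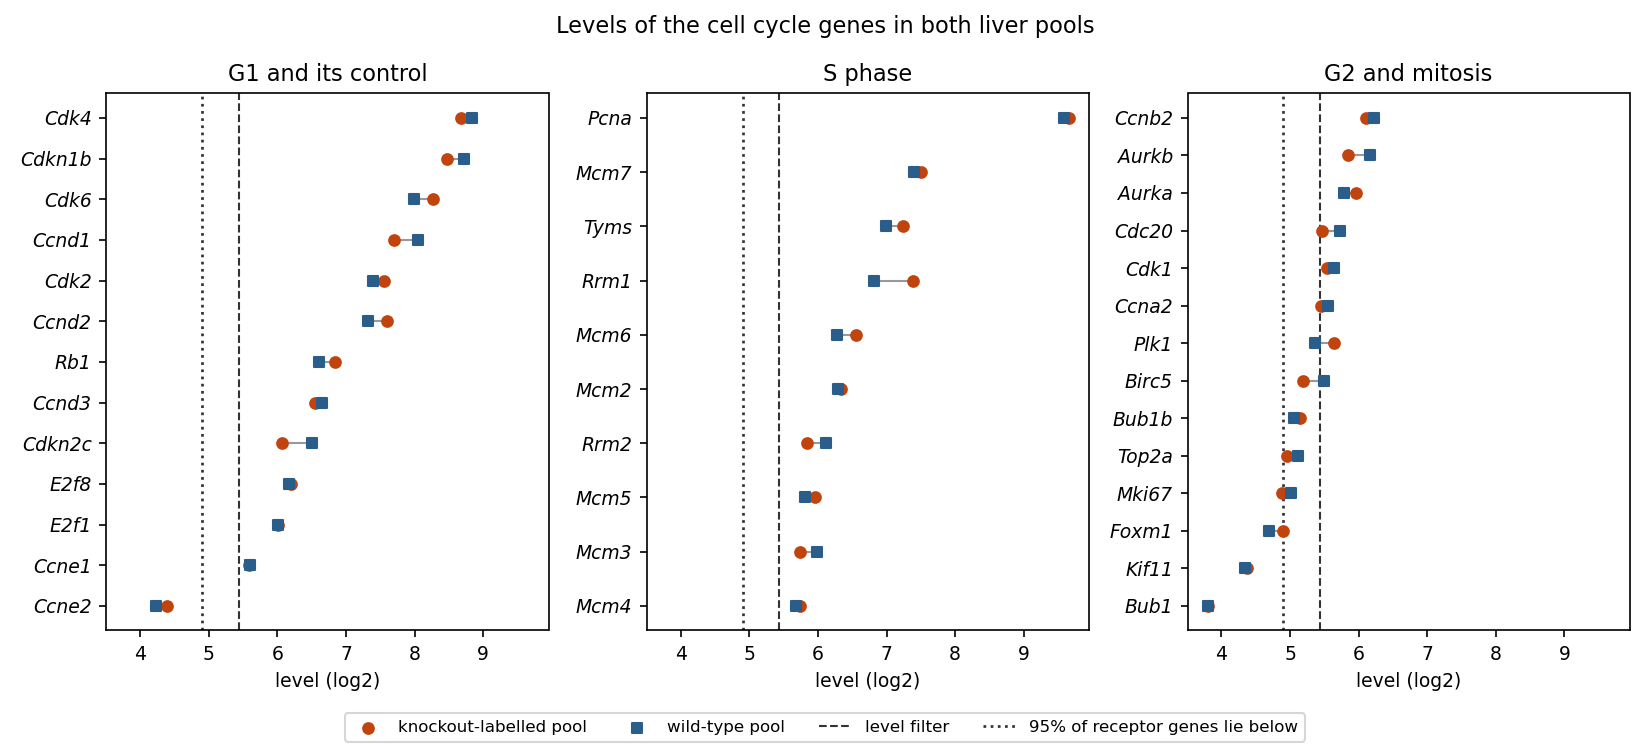
Log2 level of each measured member (rows) in the knockout-labelled pool (circles) and the wild-type pool (squares), 1 array each, in panels for G1, S phase and mitosis. The dashed line is the level filter at 5.44 and the dotted line, at 4.90, has 95% of olfactory and vomeronasal receptor genes below it. The S phase genes all lie right of both lines, and 7 of 14 mitotic genes lie left of the dashed one.

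Between the pools no member reached 1.5-fold. With the level filter 0 of 29 members were past it in either direction, where 0.956% of 11924 genes were, and without the filter 0 of 37 were, where 1.43% of all genes were. At the lower mark of 1.2-fold, a difference of 0.26, 5 members past the filter were higher and 5 lower in the knockout-labelled pool, against a background of 8.66% and 6.16% of genes. The 5 higher were Ccnd2, Cdk6, Mcm6, Rrm1 and Plk1, and the 5 lower were Ccnd1, Cdkn2c, Rrm2, Aurkb and Cdc20. Without the filter Birc5 joined the lower side, making 5 higher and 6 lower, against 9.22% and 9.63% of all genes.

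The median difference of all members was 0.03 with the filter and 0.03 without it, against 0.04 and 0.02 for all genes. The median size of the difference, sign aside, was 0.176 for members past the filter and 0.115 for all genes past it. The members were also dimmer, with a median level percentile of 54.6 among named genes, against 70.1 for all genes past the filter, and dim genes scattered more on these arrays. Each gene was therefore also set beside the middle 95% of all genes in its own level bin of 10 equal bins, a range that 5.01% of genes lie outside. Of the 37 members 3 lay outside it, Rrm1 on the higher side and Ccnd1 and Cdkn2c on the lower side.

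**Figure D2:**
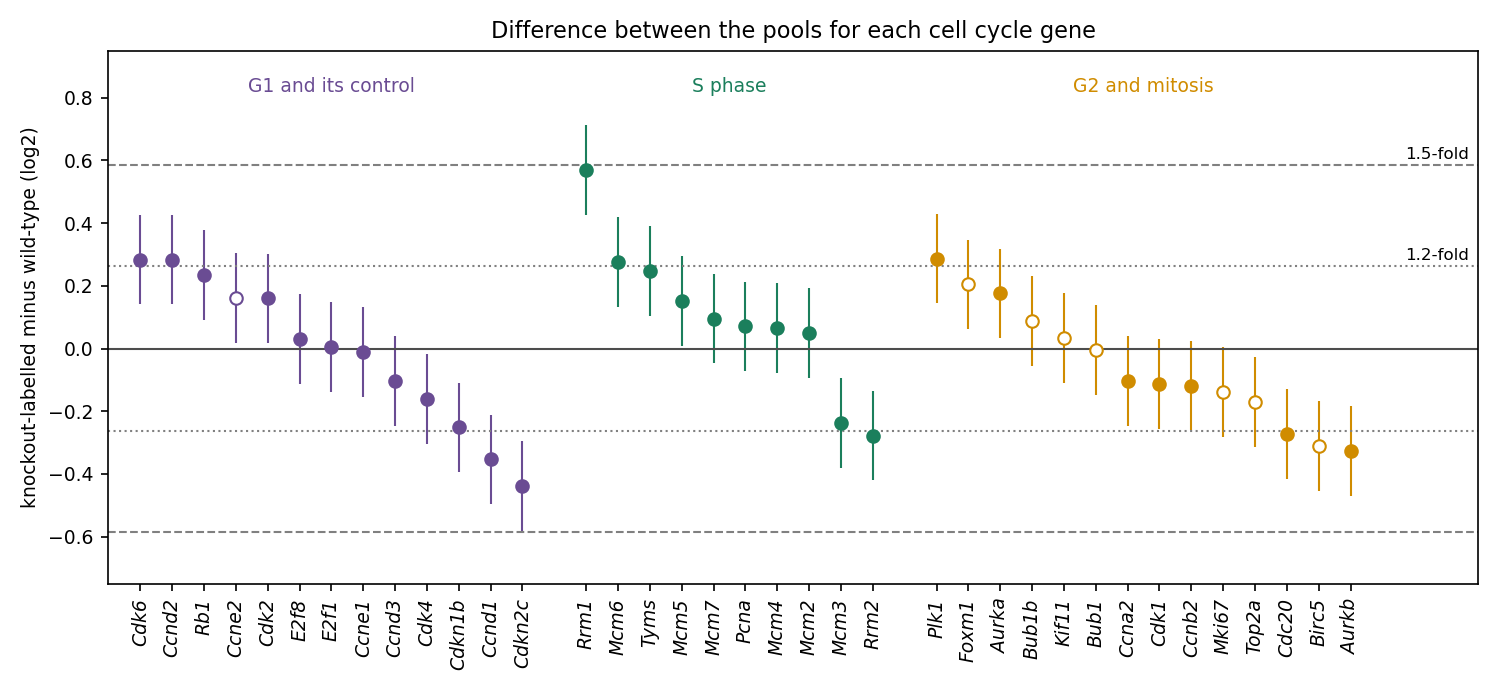
Difference between the pools (knockout-labelled minus wild-type, log2) for each measured member, in order within G1, S phase and mitosis. Open points did not pass the level filter, and the lines mark 1.2-fold and 1.5-fold. Bars are the SD of 0.143 between probes of 1 gene, taken over probes past the filter. All 37 points lie inside the 1.5-fold lines, with Rrm1 at 0.57 closest to them.

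**Figure D3:**
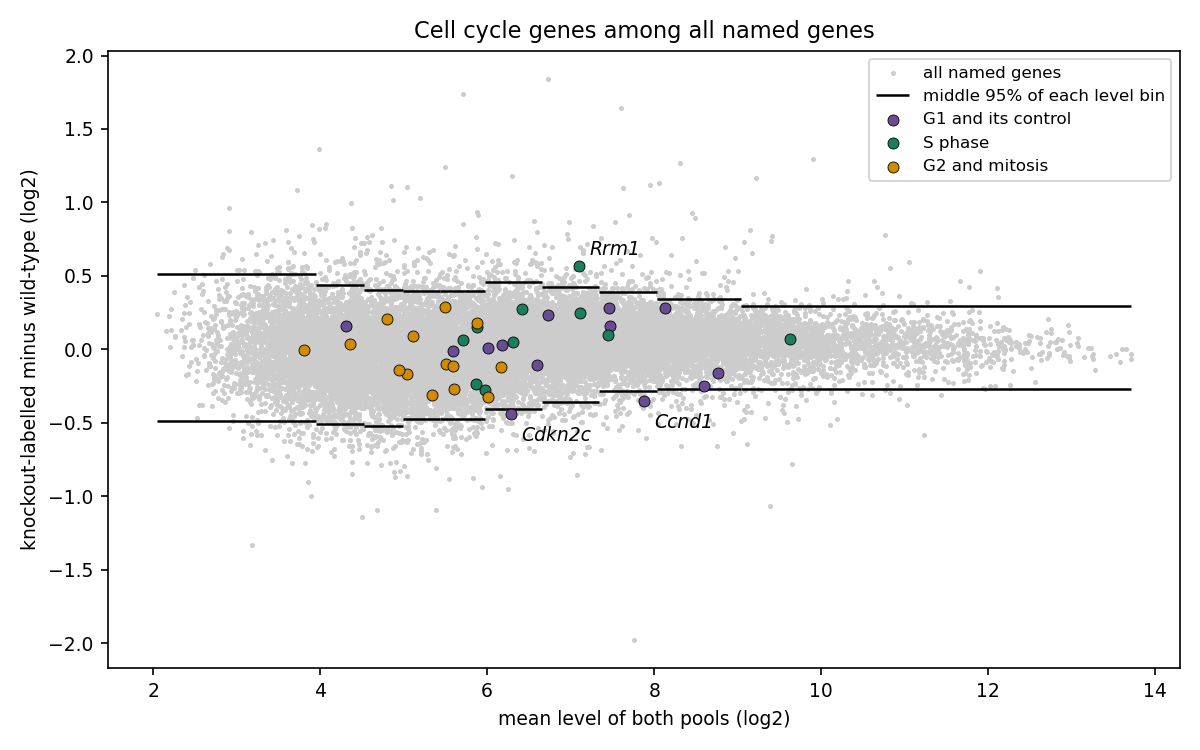
Difference between the pools (log2) against mean level of both pools (log2) for 19938 named genes in grey and the members in colour. Black steps bound the middle 95% of genes in each of 10 equal bins of level. Rrm1 lies above its step, and Ccnd1 and Cdkn2c lie below theirs.

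Among the G1 genes the D-type cyclins, which sense growth signals, differed from each other in sign. Ccnd1 was at 7.70 in the knockout-labelled pool and 8.06 in the wild-type pool, a difference of -0.35, where the middle 95% of genes of its level ran from -0.28 to 0.39. Ccnd2 was at 7.60 in the knockout-labelled pool and 7.32 in the wild-type pool, a difference of 0.28. Ccnd3 was at 6.55 in the knockout-labelled pool and 6.65 in the wild-type pool, a difference of -0.10. The first of these is the D-type cyclin best known from hepatocytes, where it rises as liver regenerates, and Ccnd1 and Ccnd2 lay on opposite sides of 0, each beyond the SD between probes.

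Their partner kinases also went both ways. Cdk4 was at 8.68 in the knockout-labelled pool and 8.84 in the wild-type pool, a difference of -0.16. Cdk6, the alternative partner, was at 8.28 in the knockout-labelled pool and 7.99 in the wild-type pool, a difference of 0.28. Cdk2, the kinase that acts with E-type and A-type cyclins, was at 7.55 in the knockout-labelled pool and 7.39 in the wild-type pool, a difference of 0.16. All 3 kinases lay inside the middle 95% for their level. Ccne1, an E-type cyclin, was at 5.59 in the knockout-labelled pool and 5.60 in the wild-type pool, a difference of -0.01 that turned to 0.03 under a common median and under removal of the trend on level. Ccne2 was at 4.39 in the knockout-labelled pool and 4.22 in the wild-type pool, both under the receptor limit.

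Both kinase inhibitors on the list were lower in the knockout-labelled pool. Cdkn2c, an INK4 inhibitor of the D-type cyclin kinases, was at 6.06 in the knockout-labelled pool and 6.50 in the wild-type pool. Its difference of -0.44, the most negative among the members, was 1.36-fold in size, and the middle 95% for its level ran from -0.41 to 0.46. Cdkn1b, which holds resting cells out of the cycle by binding Cdk2 complexes, was at 8.47 in the knockout-labelled pool and 8.72 in the wild-type pool. It had 2 probes, and these gave nearly the same difference, -0.25 and -0.26, the second at 6.67 in the knockout-labelled pool and 6.92 in the wild-type pool. Cdkn1b lay inside the middle 95% for its level, which ran from -0.27 to 0.34.

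The pocket protein and the E2F factors completed the G1 list. Rb1, the retinoblastoma protein that restrains E2F, was at 6.85 in the knockout-labelled pool and 6.61 in the wild-type pool, a difference of 0.23. E2f1, an activator of replication genes, was at 6.02 in the knockout-labelled pool and 6.01 in the wild-type pool. E2f8, an atypical E2F that represses E2F targets and is tied to polyploidy in hepatocytes, was at 6.19 in the knockout-labelled pool and 6.16 in the wild-type pool. These last differences, 0.01 and 0.03, were smaller than the SD between probes. The 12 G1 genes past the filter split evenly, 6 above and 6 below 0, or 7 and 5 under a common median. Among all genes past the filter 7099 of 11924 were above 0, or 8251 under a common median. The G1 median was -0.0023, or 0.04 under a common median. It was 0.02 after removal of the trend on level and 0.0059 without the level filter.

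Of the S phase genes 8 of 10 were above 0, with a median difference of 0.08, and all 10 had passed the filter. Among all genes past the filter 59.5% were above 0. The widest gap was within ribonucleotide reductase, the enzyme that makes deoxyribonucleotides. Its large subunit Rrm1 was at 7.38 in the knockout-labelled pool and 6.82 in the wild-type pool, a difference of 0.57 or 1.48-fold, where the middle 95% for its level ran from -0.36 to 0.42. The small subunit Rrm2, which is made in S phase and destroyed after it, was at 5.83 in the knockout-labelled pool and 6.11 in the wild-type pool, a difference of -0.28. The alternative small subunit Rrm2b, a p53 target that is no member, was at 5.71 in the knockout-labelled pool and 5.46 in the wild-type pool, a difference of 0.25. With 1 probe each, the opposite signs of Rrm1 and Rrm2 have no repeat measurement. Under a common median Rrm1 was at 0.61, just past 1.5-fold.

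The 6 subunits of the minichromosome maintenance helicase, which unwinds DNA at origins, had differences from -0.24 to 0.28 and 5 of them were above 0. Mcm6 was at 6.55 in the knockout-labelled pool and 6.28 in the wild-type pool, a difference of 0.28. Mcm3 was at 5.74 in the knockout-labelled pool and 5.98 in the wild-type pool, a difference of -0.24. The other subunits were closer, with Mcm5 at 5.96 in the knockout-labelled pool and 5.80 in the wild-type pool. Their remaining differences were 0.10 for Mcm7, 0.06 for Mcm4 and 0.05 for Mcm2, all smaller than the SD between probes. Mcm7 was at 7.50 in the knockout-labelled pool and 7.40 in the wild-type pool. Mcm2 was at 6.34 in the knockout-labelled pool and 6.29 in the wild-type pool, and Mcm4 at 5.74 in the knockout-labelled pool and 5.67 in the wild-type pool. Over the complex, then, Mcm3 was the one subunit below 0.

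Pcna, the sliding clamp of the DNA polymerases, was bright on the array, at 9.66 in the knockout-labelled pool and 9.59 in the wild-type pool. That probe sits among probes of genes on chromosome 19, while Pcna lies on chromosome 2, so it may read a near-identical copy. The second probe, placed among genes of chromosome 2, was at 9.47 in the knockout-labelled pool and 9.36 in the wild-type pool. Both probes gave small positive differences, 0.07 and 0.11. Tyms, which makes thymidylate, was at 7.24 in the knockout-labelled pool and 6.99 in the wild-type pool, a difference of 0.25 inside the middle 95% for its level.

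The mitotic genes past the filter had a median difference of -0.11, with 5 of 7 below 0. Among all genes past it, 4823 of 11924 were below 0. All 14 mitotic genes measured had a median of -0.11, with 9 of 14 below 0, or 8 of 14 under a common median. Of all 19938 named genes 9246 were below 0, or 7533 under a common median. Cyclins and kinase of mitotic entry lay close together. Cdk1, the mitotic kinase, was at 5.53 in the knockout-labelled pool and 5.65 in the wild-type pool, a difference of -0.11. Its cyclin Ccnb2 was at 6.10 in the knockout-labelled pool and 6.22 in the wild-type pool, a difference of -0.12. Ccna2, the cyclin of S phase and G2, was at 5.45 in the knockout-labelled pool and 5.55 in the wild-type pool, a difference of -0.10. These 3 differences were smaller than the SD between probes.

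Mitotic kinases went both ways. Plk1, a kinase of spindle assembly and mitotic exit, was at 5.64 in the knockout-labelled pool and 5.36 in the wild-type pool, a difference of 0.29, and its wild-type level was under the filter. Aurka, which acts at the spindle poles, was at 5.97 in the knockout-labelled pool and 5.79 in the wild-type pool, a difference of 0.18. Aurkb, the kinase of the chromosomal passenger complex, was at 5.85 in the knockout-labelled pool and 6.17 in the wild-type pool, a difference of -0.33. Birc5, the survivin subunit of that complex, was at 5.18 in the knockout-labelled pool and 5.49 in the wild-type pool, a difference of -0.31. Both passenger genes had differences of like size and sign, and both lay inside the middle 95% for their level. The other subunits of that complex, Incenp at 0.05 and Cdca8 at 0.19, lay above 0. Of these 4 subunits only Aurkb passed the level filter by its mean level.

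Of the remaining mitotic genes Cdc20 passed the level filter and the others did not. Cdc20, which activates the anaphase-promoting complex, was at 5.46 in the knockout-labelled pool and 5.73 in the wild-type pool, a difference of -0.27. Top2a, the topoisomerase that untangles sister chromatids, was at 4.95 in the knockout-labelled pool and 5.12 in the wild-type pool. Its second probe, dimmer still, gave a difference of -0.21 beside the -0.17 of the first. Mki67 was at 4.88 in the knockout-labelled pool and 5.01 in the wild-type pool, a difference of -0.14. Bub1b, a spindle checkpoint protein, was at 5.15 in the knockout-labelled pool and 5.06 in the wild-type pool, and the members under the receptor limit differed by 0.20 for Foxm1, 0.03 for Kif11 and -0.01 for Bub1. Foxm1 was at 4.90 in the knockout-labelled pool and 4.69 in the wild-type pool, Kif11 at 4.38 in the knockout-labelled pool and 4.34 in the wild-type pool, and Bub1 at 3.80 in both, so their differences describe signals near the floor.

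Promoter sequence was not used to choose the members. RefSeq promoter windows on build GRCm38.p6, 250 bases before to 50 bases after a gene's start, were matched by symbol for 30 of 38 members, taking the most upstream window of a gene. They were searched on both strands for TTTGAA, the cell cycle homology region (CHR) bound by DREAM, for CCAAT, the box bound by NF-Y, and for the E2F octamers TTTCGCGC, TTTGGCGC, TTTCCCGC and TTTGCCGC. Different motifs overlapped at 1 place in these windows, and octamers may overlap each other. The CHR was in 9 of 12 mitotic windows, 1 of 9 S phase windows and 1 of 9 G1 windows, and in 18.2% of 27025 promoters in all. The CCAAT box was in 11 of 12 mitotic, 8 of 9 S phase and 3 of 9 G1 windows, against 38.02% of all promoters. An E2F octamer was in 4 of 9 S phase windows, those of Mcm3, Mcm5, Mcm6 and Mcm7, in 1 of 12 mitotic and 1 of 9 G1 windows, and in 2.33% of all promoters.

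Further genes of each phase, which are not members and whose values follow those of the members, were searched in the same way. The CHR was in 30 of 47 other mitotic windows, 6 of 37 other S phase windows and 9 of 25 other G1 windows. The CCAAT box was in 29 of 47 other mitotic, 19 of 37 other S phase and 12 of 25 other G1 windows. An E2F octamer was in 4 of 47 other mitotic, 10 of 37 other S phase and 8 of 25 other G1 windows, so its share in the other G1 genes, 32.0%, was above the 27.0% of the other S phase genes.

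Windows of 3 pairs of partners are shown because each pair acts in 1 complex: the reductase subunits, which differed in sign between the pools, helicase subunits that also did, and the mitotic kinase with its cyclin, which did not. They were chosen after their values were seen. The 250 bases before the start are given 5′ to 3′ on the strand of the gene, with any of these motifs in capitals in either orientation.
Rrm1, chr7:102441445-102441694, plus strand: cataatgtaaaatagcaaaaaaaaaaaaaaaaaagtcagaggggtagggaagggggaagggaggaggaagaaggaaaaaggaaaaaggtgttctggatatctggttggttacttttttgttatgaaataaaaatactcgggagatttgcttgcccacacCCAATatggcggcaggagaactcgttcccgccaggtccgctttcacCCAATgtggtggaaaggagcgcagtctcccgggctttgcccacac
Rrm2, chr12:24708004-24708253, plus strand: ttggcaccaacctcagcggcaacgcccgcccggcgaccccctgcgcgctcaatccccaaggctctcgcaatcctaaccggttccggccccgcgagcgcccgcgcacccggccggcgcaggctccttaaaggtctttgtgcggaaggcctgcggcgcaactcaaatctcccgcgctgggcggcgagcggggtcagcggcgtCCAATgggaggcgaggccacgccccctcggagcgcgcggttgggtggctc
Mcm6, chr1:128359706-128359955, minus strand: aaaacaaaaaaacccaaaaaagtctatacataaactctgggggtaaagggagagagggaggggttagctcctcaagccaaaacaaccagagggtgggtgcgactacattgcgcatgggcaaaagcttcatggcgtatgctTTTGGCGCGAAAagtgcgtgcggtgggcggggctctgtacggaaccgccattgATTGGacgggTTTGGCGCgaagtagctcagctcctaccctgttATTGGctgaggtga
Mcm3, chr1:20820313-20820562, minus strand: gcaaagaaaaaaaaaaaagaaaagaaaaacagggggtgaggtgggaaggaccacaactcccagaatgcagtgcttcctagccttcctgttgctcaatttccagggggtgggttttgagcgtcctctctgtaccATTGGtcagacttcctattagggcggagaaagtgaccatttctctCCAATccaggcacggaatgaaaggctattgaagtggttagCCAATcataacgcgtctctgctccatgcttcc
Cdk1, chr10:69352913-69353162, minus strand: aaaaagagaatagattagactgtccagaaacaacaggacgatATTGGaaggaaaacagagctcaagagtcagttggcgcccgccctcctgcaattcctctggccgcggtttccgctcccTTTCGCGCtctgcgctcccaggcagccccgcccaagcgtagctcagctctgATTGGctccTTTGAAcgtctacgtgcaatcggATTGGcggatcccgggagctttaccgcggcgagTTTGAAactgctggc
Ccnb2, chr9:70421555-70421804, minus strand: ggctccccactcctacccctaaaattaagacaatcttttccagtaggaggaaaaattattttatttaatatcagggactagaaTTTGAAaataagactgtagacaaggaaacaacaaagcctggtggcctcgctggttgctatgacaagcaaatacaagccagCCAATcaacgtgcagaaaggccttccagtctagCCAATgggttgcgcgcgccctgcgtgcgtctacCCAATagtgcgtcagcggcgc
Both reductase windows hold CCAAT boxes and no CHR or octamer. Mcm6 has its octamers before the start, 2 of them overlapping, and Mcm3 has its 2 octamers within the 50 bases after the start that are not shown. Cdk1 holds the CHR, the CCAAT box and an octamer, and Ccnb2 holds 3 CCAAT boxes and a CHR, with a second CHR after the start. A match describes letters and not binding.

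The motif classes did not line up with 1 sign of difference. Among the 9 measured mitotic genes with a CHR, differences ran from -0.27 to 0.29, with 4 above and 5 below 0 and a median of -0.11. Birc5 and Bub1, the measured mitotic genes whose window held none, were at -0.31 and -0.01. Among the 4 S phase genes with an E2F octamer the differences ran from -0.24 to 0.28 with a median of 0.12, and among the 5 without one from -0.28 to 0.57 with a median of 0.07. This comparison is a description over few genes.

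The rest of the pathway was taken from 3 further lists drawn up by role. Of 30 measured G1 genes, 46 measured S phase genes and 58 measured mitotic genes in these lists, 0 were past 1.5-fold, with or without the level filter, where the backgrounds were again 0.956% and 1.43%. Past the filter the median differences were 0.03 for 28 G1 genes, 0.11 for 35 S phase genes and 0.04 for 18 mitotic genes, beside 0.04 for all genes. Above 0 were 16 of 28, 25 of 35 and 10 of 18, beside 7099 of 11924 among all genes past the filter. After removal of the trend on level 13, 22 and 11 were above 0, beside 6069 of 11924. Removal of the trend on level turned the G1 median to -0.0037, and the mean over a gene's probes turned it to -0.0015.

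The other S phase genes had the widest spread, from -0.55 to 0.49. Fen1, the nuclease that trims Okazaki fragments, was at 5.29 in the knockout-labelled pool and 5.84 in the wild-type pool, a difference of -0.55. Timeless, of the fork protection complex, was at 5.40 in the knockout-labelled pool and 5.94 in the wild-type pool, a difference of -0.54. Pola1, the catalytic subunit of DNA polymerase alpha, was at 5.34 in the knockout-labelled pool and 5.81 in the wild-type pool, a difference of -0.47. All 3 were below the filter level in the knockout-labelled pool.

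On the other side Gins4, of the GINS part of the replicative helicase, was at 8.17 in the knockout-labelled pool and 7.68 in the wild-type pool, a difference of 0.49. Orc6, of the origin recognition complex, was at 7.11 in the knockout-labelled pool and 6.68 in the wild-type pool, a difference of 0.43. Rfc4, of the clamp loader, was at 7.04 in the knockout-labelled pool and 6.65 in the wild-type pool, a difference of 0.39. Fen1, Timeless, Gins4 and Orc6 lay outside the middle 95% for their level, each represented by 1 probe.

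In the other G1 genes the lowest differences were those of Mybl2, a factor that joins DREAM subunits to activate mitotic genes, at -0.37, Cdc25a, a phosphatase that activates cyclin-dependent kinases, at -0.26, and Rbl1, a relative of Rb1, at -0.22. The highest were Myc, a growth-promoting transcription factor, at 0.27, and the DREAM subunits Lin52 at 0.18 and Lin37 at 0.17. Myc was at 6.71 in the knockout-labelled pool and 6.45 in the wild-type pool, and Mybl2 at 5.65 in the knockout-labelled pool and 6.02 in the wild-type pool. Among the other mitotic genes past the filter the highest were Cit, a kinase of cell abscission, at 0.27, Spc24 of the kinetochore at 0.24 and Ncapd3 of condensin II at 0.23. The lowest were Spc25, the partner of Spc24, at -0.27, Cks2, a small binding partner of cyclin-dependent kinases, at -0.15, and Cdca3, a mitotic regulator, also at -0.15.

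**Figure D4:**
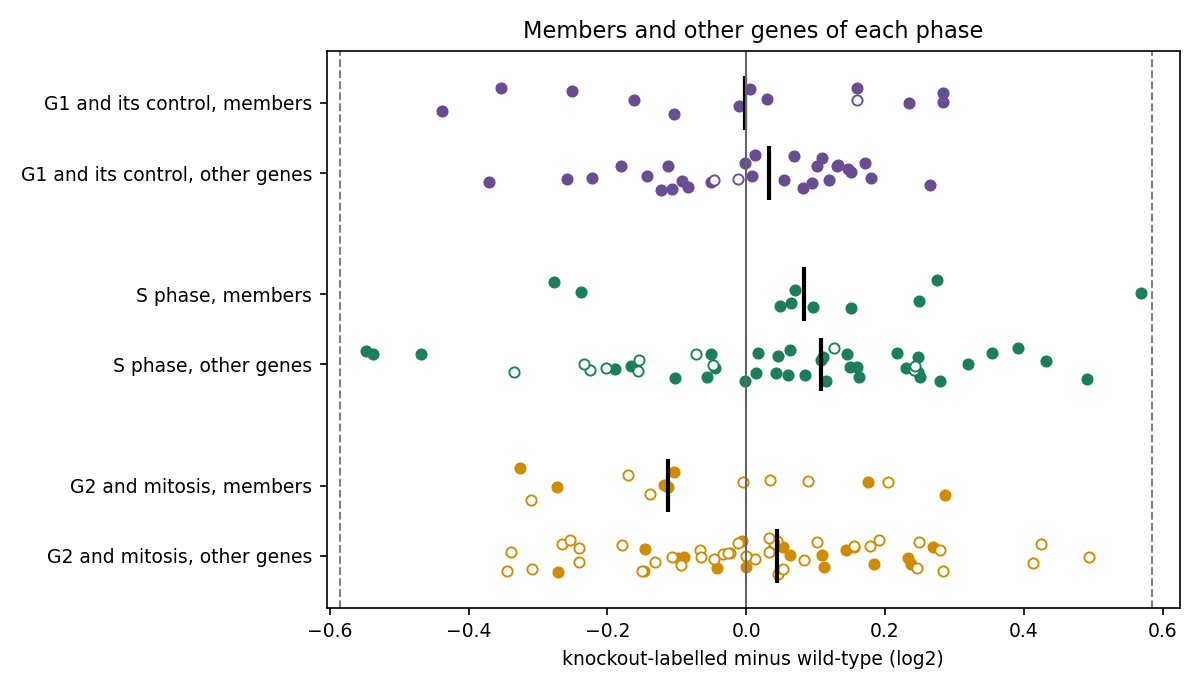
Difference between the pools (knockout-labelled minus wild-type, log2) for members and for the other genes of each phase, 1 point per gene, spread vertically for sight. Open points did not pass the level filter, black bars are medians of those that did, and dashed lines mark 1.5-fold. No point lies beyond the dashed lines, and the S phase genes reach from -0.55 to 0.57.

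Dividing cells in a resting liver need not be hepatocytes, so markers of other cells are given beside these values. In bulk RNA, fewer cells of a type and less RNA per cell cannot be told apart. Kupffer cell and macrophage markers, 12 of 12 measured and all above the receptor limit, had a median difference of -0.19 with 11 of 12 below 0. Of these markers 9 were below 0 under a common median and 11 after removal of the trend on level. Their summed level was 11.7 in the knockout-labelled pool and 11.9 in the wild-type pool, as log2 of the sum. Sinusoidal endothelial markers had a median of 0.12 with 9 of 10 above 0. Under a common median 10 of them were above 0, and after removal of the trend on level 7 were. The summed level of these endothelial markers was 11.9 in the knockout-labelled pool and 11.8 in the wild-type pool. Among all genes past the filter 59.5% were above 0. Of these 11924 genes 8251 were above and 3673 below 0 under a common median. After removal of the trend on level 6069 were above and 5855 below 0.

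Most markers of white blood cells did not pass the level filter. Of 8 neutrophil markers 1 passed the filter, of 8 measured T and NK cell markers 2 did, and of 7 measured B and plasma cell markers 1 did. Their medians without the filter were -0.15, -0.19 and 0.04. Stellate cell markers, 9 of 9 measured, had a median of 0.0010, and bile duct markers, 5 of 6 measured, a median of 0.15.

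Of 9 erythroid markers 5 were measured, and 3 of these passed the filter. Their median without the filter was -0.13, with 2 above 0 and 3 below. Alas2, the heme synthesis enzyme of red cell precursors and the brightest of the list, was at 9.89 in the knockout-labelled pool and 9.60 in the wild-type pool, a difference of 0.29. The transferrin receptor Tfrc, which many dividing cells also express, was at 6.82 in the knockout-labelled pool and 7.53 in the wild-type pool, a difference of -0.71. The part of these cell types in the values of the cell cycle genes was not tested.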

How the data were processed

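RNA of 2 liver pools, 300 ng each, was measured on Affymetrix arrays. The table deposited by the authors gives a log2 value for every probe set on either array. Each probe set is called a probe in this text. The submitters' processing notes list Affymetrix Expression Console 1.0, RMA and Partek 6.4 without saying what each did. Settings and build: not given in the sources used here. By design, RMA gives log2 values on a common distribution, which compresses dim differences and hides a change in total RNA. Precision is limited by the number of arrays.

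Of 28853 probes 21789 carried 1 symbol in the platform annotation, 1621 several and 5443 none. Where a gene had several probes, that with the highest mean was used. Differences are the knockout-labelled value minus the wild-type value, unscaled. The array medians were 5.71 in the knockout-labelled pool and 5.76 in the wild-type pool.

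Members and lists were chosen with earlier results of these data known. Named genes are the members, the 3 highest and 3 lowest of each further list past the filter, markers past 1.5-fold or brightest in their list, and Fhl2. Others (Rrm2b, Incenp, Cdca8 and those under the closing observations) were chosen after their values were seen. Alternatives were no filter, filters at the 60th percentile (6.69) and at the receptor limit, a shift to a common median, lowess with a span of 0.3 on mean level, the mean over a gene's probes, list means, and marks of 1.2-fold and 2-fold. The choice of probe, the fold counts, the level bins and lowess were checked on simulated arrays first. The list summaries and the motif search were not. Python 3.11.15, pandas 2.3.3 and statsmodels 0.14.6 were used.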

Additional observations from a re-analysis of the deposited data

How the results depend on the processing

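No paired analysis was possible because each group holds 1 array. Under the common median shift, lowess and the mean over probes, all 111 values of single members stayed within 0.143, the SD between probes, of the value reported, and 2 members, Ccne1 and Bub1, changed sign, both from differences of at most 0.010 in size. Many of these values could not have gone further. The mean over probes changes nothing for the 34 members with 1 probe. The common median shift adds 0.04 to every gene, less than the SD between probes. It put 1 member, Rrm1 of S phase, past 1.5-fold on the higher side, and moved the medians of all members to 0.0708, of the other G1 genes to 0.0744, of the other S phase genes to 0.149 and of the other mitotic genes to 0.0856. With the filter at the 60th percentile the medians were 0.16 for all members (11 genes), 0.16 for G1 (7 genes), 0.17 for S phase (4 genes), 0.11 for the other G1 genes and -0.0213 for the other mitotic genes, over fewer genes, and no mitotic member was left, so it gave no mitotic value. Other G1 genes had a median of -0.0037 after lowess, -0.0015 with the mean over probes and 0.0029 as a mean. Other S phase genes had 0.0614 without the filter, 0.0455 after lowess and 0.0736 as a mean. At 1.2-fold the counts higher and lower were 5 and 5 for all members, 2 and 2 for G1, 2 and 1 for S phase and 1 and 2 for mitotic genes, and at 2-fold they were 0. Apart from the shift, the cause of these moves was not tested. With 1 array per group, pools, arrays and genotype cannot be told apart, and 7 of 14 measured mitotic members gave signals under the level filter.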

Other observations

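Subunits of other replication and mitosis complexes, chosen after their values were seen, were compared within each complex. The 5 clamp loader subunits of replication factor C, which places Pcna on DNA, were all above 0, from 0.06 to 0.39. Of all genes past the filter 59.5% were above 0. Removal of the trend on level left Rfc4 at 0.35, Rfc1 and Rfc5 at 0.05 and Rfc2 at 0.02. It put Rfc3 just below 0. DNA polymerase alpha and its primase ran from -0.47 for Pola1 to 0.28 for Prim2, with 3 of 4 above 0. The origin recognition complex ran from -0.33 for Orc1, which lay under the level filter and the receptor limit, to 0.43 for Orc6. Timeless and its partner Tipin were both below 0, at -0.54 and -0.17.

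Condensins compact mitotic chromosomes. The 5 listed subunits of condensin I, the shared Smc2 and Smc4 included, ran from -0.06 to 0.05, 2 of them past the level filter, and Ncapd3, a subunit of condensin II, was at 0.23. The Ndc80 complex of the kinetochore had a wider range. Nuf2 was at 0.41, Spc24 at 0.24, Spc25 at -0.27 and Ndc80 at -0.34. By their mean level Nuf2 and Ndc80 were under the level filter and also under the receptor limit. Prc1, a spindle midzone protein, was at 4.56 in the knockout-labelled pool and 4.07 in the wild-type pool, a difference of 0.49, and both values lay under the receptor limit. All 8 E2F genes passed the filter, and their differences ran from -0.18 to 0.10. The thymidine kinase gene Tk1 had 2 probes with differences of 0.11 and 0.43, the first placed among genes of chromosome 8 and the second among those of chromosome 11, where Tk1 lies.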
